A study of Homo sapiens with 12 samples.

Results

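The 41 genes described here encode the machinery that copies DNA in S phase: the proteins that load and fire replication origins, the replicative helicase, the DNA polymerases with their sliding clamp, and the enzymes that supply deoxynucleotides. They were taken from the table of estimated counts by symbol, 41 of 29744 entries, and all 41 passed the authors' filter in every comparison. Before S phase, ORC, CDC6 and CDT1 load the MCM2-7 helicase onto origins. Once it is activated, polymerase alpha-primase starts each new strand, polymerases delta and epsilon extend it, and FEN1 and LIG1 join the fragments of the lagging strand. Many of these genes are known targets of E2F transcription factors, which RB holds in check, and their transcripts are commonly read as a sign of cycling cells.

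RNA-seq was performed on 4 groups of 3 libraries, all after doxycycline for 72 h (1 µg/ml per the labels). MB157R iN1-ICD and MB157R iEV are GSI-resistant MB157R cells with an inducible N1-ICD or with the empty vector. N1-ICD is the active intracellular domain of NOTCH1, but the paper gives the construct of this name as NOTCH1 without its extracellular domain. MB157 iSOX2 and MB157 iEV are cells of the GSI-sensitive parent line MB157 with inducible SOX2 or the empty vector. The paper reports that induced SOX2 made the growth of MB157 cells resistant to GSI. MB157 is an established triple-negative breast cancer (TNBC) line which, by the study's account, carries a NOTCH1 rearrangement that makes NOTCH1 constitutively active. All groups derive from this line, but the paper mapped the lesion in MB157. It reports much less N1-ICD protein in MB157R than in MB157, and less in MB157 after SOX2 was induced. MB157R, the resistant line in these data, is a derivative of MB157 grown out over 25 weeks in 1 µM GSI, a γ-secretase inhibitor that blocks release of N1-ICD. Whether GSI was present when RNA was taken is not given in the sources used here. Nor do they say whether the product of the induced NOTCH1 construct needs γ-secretase to act. The constructs are lentiviral, and the induced levels are those of a transgene. The paper's legends to the figures with RNA-seq panels speak of biological replicates (n = 3) but do not say how these were grown. The labels do not say whether libraries of a group came from separate cultures, so p-values describe only how these libraries vary.

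Libraries held 32773820 to 49055208 estimated counts, and the 41 genes had between 135 and 29156 counts in any library. SOX2 stood at 291, 335 and 298 CPM (counts relative to library size, scaled by TMM over the 12 libraries) in MB157 iSOX2 and at 6.62, 7.69 and 6.99 CPM in MB157 iEV, and NOTCH1 at 2617, 1760.0 and 2588 CPM in MB157R iN1-ICD and 102, 85.4 and 90.1 CPM in MB157R iEV, so each induced gene was higher in the libraries labelled with it. HEYL and HEY2, targets of NOTCH, averaged 1.02 ± 0.153 and 0.583 ± 0.0699 CPM in MB157R iN1-ICD (SD, n = 3) and were at 0 in all 3 MB157R iEV libraries. Both stayed far below MB157 iEV, where they averaged 18.01 ± 0.968 and 11.04 ± 0.832 CPM. SOX2 was also present in MB157R without its construct, at 60.35 ± 6.26 CPM in MB157R iEV and 18.81 ± 1.42 CPM in MB157R iN1-ICD. The 8 breast epithelial markers examined were detected in every group, CD3E was at 0 in all libraries, and ERBB2 averaged 122 to 167 CPM, against 0.235 to 1.86 CPM for ESR1 and 1.65 to 5.01 CPM for PGR. Of markers of other cell types, the 3 endothelial genes summed to 98.9 to 107.5 CPM in MB157 iSOX2, nearly all of it PECAM1, and 6.04 to 7.33 CPM in MB157 iEV, while CDH5 was at 0 in 2 of the 3 MB157 iSOX2 libraries and in all 3 MB157 iEV libraries. The 6 fibroblast genes summed to 155.6 to 165.9 CPM in MB157R iN1-ICD, 73.1 to 86.9 CPM in MB157R iEV and 16.5 to 21.1 CPM in MB157 iEV, mostly COL1A1, with DCN at 0 in every MB157R library. The 4 immune genes summed to at most 12.2 CPM in any library. The part of these markers in the results was not tested.

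**Figure D1:**
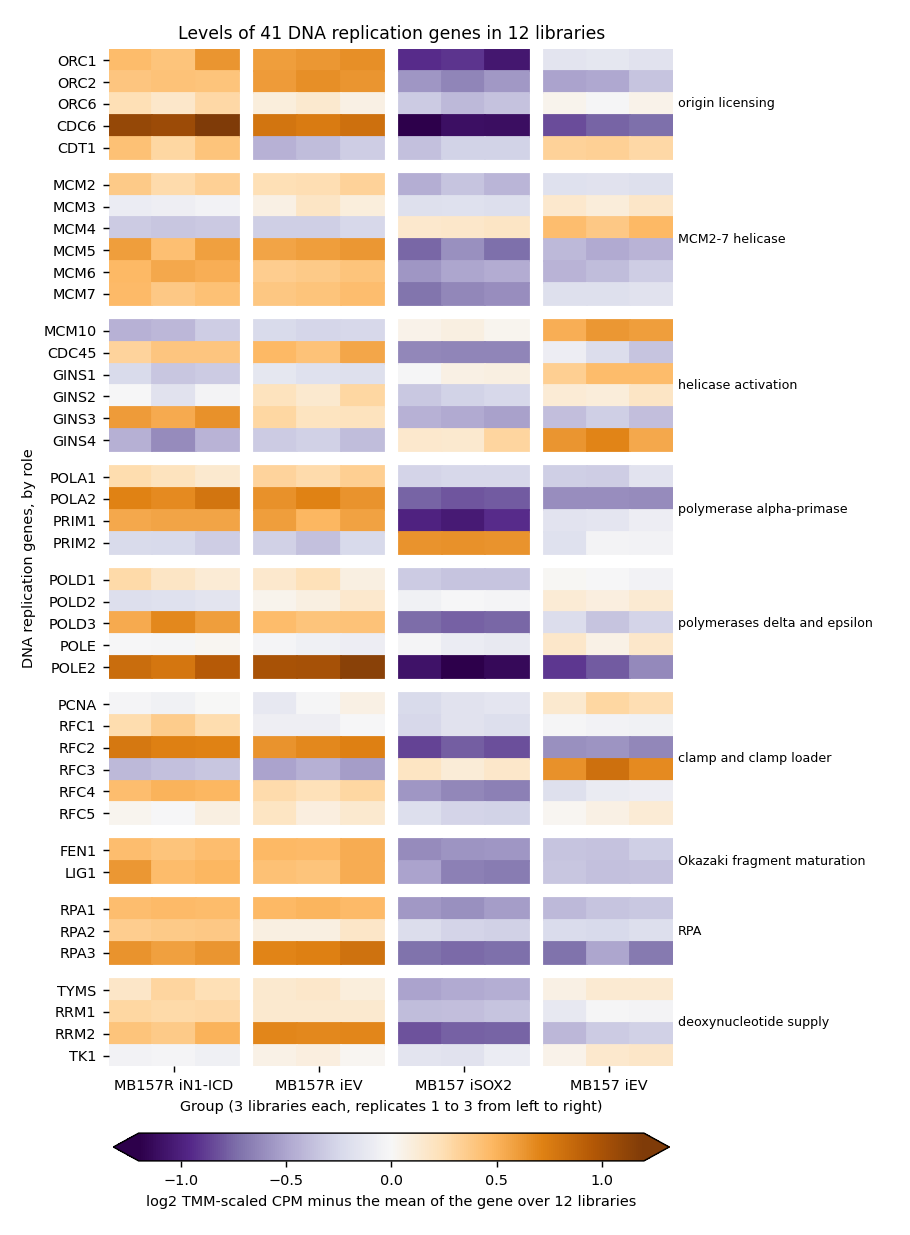
Each row is a DNA replication gene, ordered by role, and each column a library; the colour is the log2 of TMM-scaled CPM minus the gene's mean over the 12 libraries. The 3 MB157 iSOX2 libraries are the lowest for most rows, with PRIM2 the clearest exception, and rows such as RFC3, GINS4, MCM4 and MCM10 are lower in both MB157R groups than in MB157 iEV.

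Because most of these genes moved together in MB157 iSOX2 cells, the promoters of some of them are shown. RefSeq promoter windows on GRCh38.p14, from 250 bases before to 50 bases after the start, were matched for 35 of the 41 genes. E2F-type letters (TTTCCCGC, TTTCGCGC, TTTGCCGC or TTTGGCGC, on either strand, overlaps allowed) were found in 17 of these 35 windows, 48.6%, against 5.45% of the 9841 windows of genes tested in any comparison and 3.33% of all 27305 windows. CCAAT was found in 60.0% of the 35 windows against 36.6% of windows of tested genes, RBPJ-type TGGGAA in 34.3% against 21.9%, SOX-type ACAATG or ACAAAG in 14.3% against 16.0%, and the CHR letters TTTGAA or TTCGAA, common in genes of mitosis, in 5.71% against 10.8%. A match is a stretch of letters and not a shown binding site. Printed here are the bases from 160 before to 30 after the start for the licensing factors CDC6 and CDT1 and the helicase subunits MCM2, MCM6 and MCM7, whose windows hold E2F-type letters, and for the primase gene PRIM1, whose window holds none; all run 5′ to 3′ on the strand of the gene, with E2F-type letters in capitals.
CDC6 (chr17:40287719-40287908, plus strand): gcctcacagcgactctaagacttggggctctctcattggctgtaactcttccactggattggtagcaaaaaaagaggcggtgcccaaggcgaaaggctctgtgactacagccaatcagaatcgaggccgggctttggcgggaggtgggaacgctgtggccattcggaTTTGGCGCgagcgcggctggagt
CDT1 (chr16:88803629-88803818, plus strand): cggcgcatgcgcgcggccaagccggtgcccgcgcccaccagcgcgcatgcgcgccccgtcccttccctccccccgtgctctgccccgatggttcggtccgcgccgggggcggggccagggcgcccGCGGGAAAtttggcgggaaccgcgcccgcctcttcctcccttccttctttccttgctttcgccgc
MCM2 (chr3:127598251-127598440, plus strand): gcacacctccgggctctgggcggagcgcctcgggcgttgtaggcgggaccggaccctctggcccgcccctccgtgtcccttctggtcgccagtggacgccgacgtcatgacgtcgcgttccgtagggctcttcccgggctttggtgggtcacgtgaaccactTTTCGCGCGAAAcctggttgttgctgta
MCM6 (chr2:135876414-135876603, minus strand): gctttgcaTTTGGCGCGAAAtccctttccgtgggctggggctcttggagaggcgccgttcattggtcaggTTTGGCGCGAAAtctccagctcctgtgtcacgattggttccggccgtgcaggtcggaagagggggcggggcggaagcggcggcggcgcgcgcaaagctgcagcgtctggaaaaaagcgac
MCM7 (chr7:100101368-100101557, minus strand): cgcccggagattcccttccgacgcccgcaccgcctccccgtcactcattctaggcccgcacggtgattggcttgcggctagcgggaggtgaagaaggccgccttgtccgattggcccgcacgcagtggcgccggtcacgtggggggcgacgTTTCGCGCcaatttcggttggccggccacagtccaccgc
PRIM1 (chr12:56752294-56752483, minus strand): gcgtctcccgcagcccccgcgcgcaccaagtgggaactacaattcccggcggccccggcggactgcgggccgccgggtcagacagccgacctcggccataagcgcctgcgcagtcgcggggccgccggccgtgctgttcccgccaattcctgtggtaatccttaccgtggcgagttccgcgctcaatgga
In MCM2 the capitals are 2 matches on opposite strands that overlap in a palindrome, and each of the runs in MCM6 likewise holds 2 overlapping matches.

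MB157R iEV cells were compared with MB157 iEV cells to ask how replication genes differ between the GSI-resistant and the GSI-sensitive line. In MB157R iEV, 24 of the 41 genes were higher and 9 lower, and 8 did not pass the test (edgeR's quasi-likelihood test, adjusted p under 0.05 over 11435 genes). The lines differed at most genes: 90.2% of all genes tested were called, 45.0% higher and 45.3% lower, so 24 of 41 higher (58.5%) is above the share over all genes and 9 of 41 lower (22.0%) below it. The median log2 fold change was 0.39 for the 41 genes and -0.004 over all genes tested. The groups did not overlap for 34 of the 41 genes, against 90.9% of all genes. In bulk RNA, a different share of cells in S phase and a different amount of RNA per cell cannot be told apart.

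Among origin licensing genes, CDC6, the ATPase that loads MCM2-7 with ORC, stood at 113, 109.7 and 115 CPM in MB157R iEV and 36.5, 38.3 and 39.5 CPM in MB157 iEV. Every MB157R library was far above every MB157 library, a 2.96-fold difference (log2 fold change 1.56, SE 0.04, adjusted p = 6.5e-13). ORC1 and ORC2, subunits of the origin recognition complex, were also higher, with log2 fold changes of 0.78 and 1.08, while ORC6 did not pass the test (0.08). CDT1, the partner of CDC6 in licensing, went the other way, with 34.2, 35.5 and 37.8 CPM in MB157R iEV and 58.2, 58.7 and 56.9 CPM in MB157 iEV. Its groups did not overlap, and it was 1.61-fold lower (log2 fold change -0.69, SE 0.05, adjusted p = 1.2e-08). CDC6 and CDT1, which act at the same step, thus differed in opposite directions.

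Among subunits of the MCM2-7 helicase, MCM5, MCM6, MCM7 and MCM2 were higher in MB157R iEV (log2 fold changes 1.04, 0.75, 0.60 and 0.46) and MCM3 did not pass the test (-0.02). MCM4 was the subunit that was lower, at 189, 189 and 195 CPM in MB157R iEV and 316, 302 and 322 CPM in MB157 iEV, without overlap (1.64-fold, log2 fold change -0.71, SE 0.04, adjusted p = 4.3e-10). The genes that activate the helicase were split: CDC45 and GINS3 were higher (0.70 and 0.59), and MCM10, GINS1 and GINS4 lower (-0.82, -0.59 and -0.96), with GINS2 not passing the test (0.08). GINS4, a subunit of the GINS complex that joins the helicase to CDC45, had 29.3, 29.8 and 27.8 CPM in MB157R iEV and 56.3, 59.4 and 53.3 CPM in MB157 iEV. MCM10, which helps to activate the loaded helicase, had 41.6, 40.7 and 40.9 CPM in MB157R iEV and 69.7, 75.1 and 73.7 CPM in MB157 iEV. For both, every MB157R library lay below every MB157 library, and the 4 subunits of GINS thus differed in direction or did not pass the test.

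POLE2, the regulatory subunit of polymerase epsilon, showed the largest difference of the 41 genes. It stood at 15.7, 15.7 and 17.2 CPM in MB157R iEV and 4.16, 4.49 and 5.03 CPM in MB157 iEV, 3.54-fold higher without overlap (log2 fold change 1.82, SE 0.09, adjusted p = 3.8e-10). The catalytic subunit POLE was slightly lower (-0.18). Polymerase delta subunits POLD3 and POLD1 were higher (0.71 and 0.17), and POLD2 did not pass the test (-0.03). POLA2, the regulatory subunit of polymerase alpha, had 92.3, 96.3 and 91.4 CPM in MB157R iEV and 38.6, 38.6 and 38.2 CPM in MB157 iEV (log2 fold change 1.28, SE 0.04, adjusted p = 2.8e-12). POLA1 and PRIM1 were also higher (0.57 and 0.68), whereas PRIM2 was lower (-0.21).

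The clamp loader RFC, which places the sliding clamp PCNA on DNA, held the largest fall. RFC3 stood at 15.3, 15.9 and 14.9 CPM in MB157R iEV and 34.1, 38.2 and 34.7 CPM in MB157 iEV, 2.32-fold lower (log2 fold change -1.22, SE 0.06, adjusted p = 3.4e-10). RFC2, another small subunit of the same loader, stood at 114, 118 and 121 CPM in MB157R iEV and 48.3, 49.2 and 47.2 CPM in MB157 iEV, 2.44-fold higher (log2 fold change 1.29, SE 0.04, adjusted p = 2.3e-12). Neither gene had overlapping groups, so subunits of the loader differed in opposite directions between the lines. RFC4 was higher (0.39), PCNA lower (-0.25), and RFC1 and RFC5 did not pass the test (-0.01 and 0.07). FEN1, the flap endonuclease of Okazaki fragments, had 188, 187 and 196 CPM in MB157R iEV and 106, 106 and 110.3 CPM in MB157 iEV (0.83), and the ligase gene LIG1 differed by a similar amount (0.81). All 3 subunits of RPA, which coats single-stranded DNA, were higher: RPA1 by 0.84, RPA2 by 0.33 and RPA3 by 1.38 on the log2 scale. RPA3 had 34.6, 35.1 and 37.1 CPM in MB157R iEV and 12.8, 14.96 and 13.2 CPM in MB157 iEV, without overlap. Of the genes for deoxynucleotide supply, RRM2, the regulated subunit of ribonucleotide reductase, had 304, 301 and 303 CPM in MB157R iEV and 139, 150.0 and 153 CPM in MB157 iEV, 2.05-fold higher. RRM1 was higher by less (0.21), and TYMS and TK1 did not pass the test (0.02 and -0.07).

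**Figure D2:**
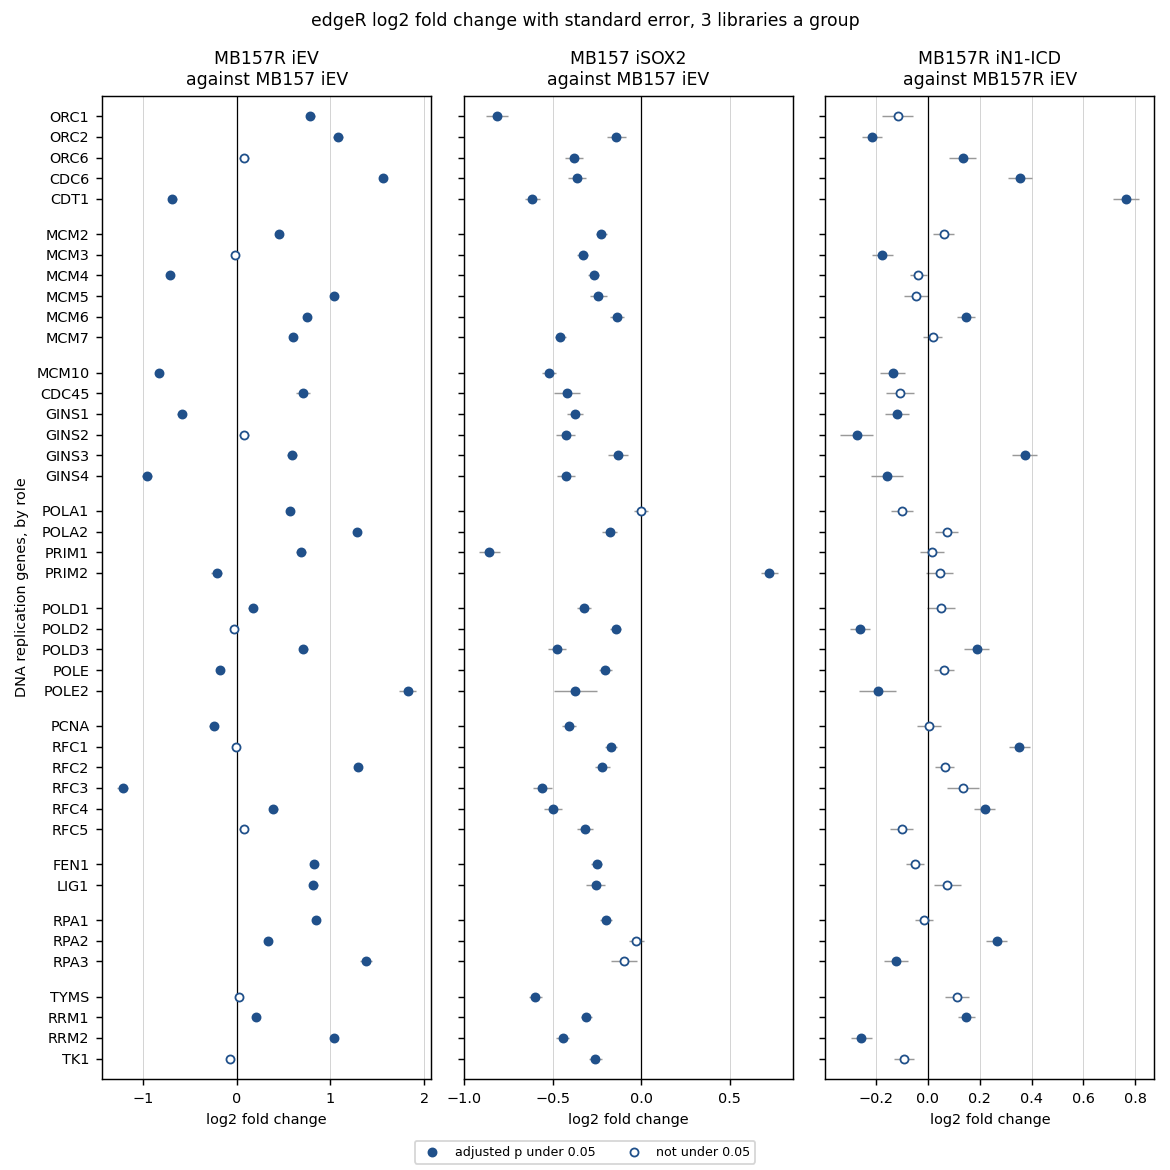
Each point is the log2 fold change of a gene from edgeR with its standard error as a bar, filled where the adjusted p was under 0.05; the 3 panels have different horizontal scales. In MB157R iEV against MB157 iEV the genes spread to both sides, from -1.22 for RFC3 to 1.82 for POLE2; in MB157 iSOX2 against MB157 iEV 40 of 41 lie below 0; and in MB157R iN1-ICD against MB157R iEV they lie around 0, with CDT1 highest.

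Some replication genes lay among genes that differed between the lines in the same direction, so the median log2 fold change of tested genes within 5 Mb was set beside each gene; this look at neighbours was chosen after the values were seen. Gene and neighbour median had the same sign for 24 of the 41 genes, and for 25 with iSOX2 and 27 with iN1-ICD. CDC6, with 146 such neighbours on chromosome 17, had a neighbour median of 0.93, and RPA3 and POLE2 had 1.03 and 0.74 (37 and 41 neighbours). MCM4 and GINS4, both on chromosome 8, had neighbour medians of -1.35 and -1.24 (10 and 32 neighbours), and MCM10 and GINS1 had -0.63 and -0.85 (31 and 14 neighbours). MCM6, ORC2, POLA2 and FEN1 were higher among neighbours with medians of 0.82, 0.53, 0.67 and 0.53, and PCNA and POLE lower among neighbours with medians of -0.89 and -0.74. For some other genes the neighbour median was near 0 or of the opposite sign: RFC3 had a neighbour median of -0.06, RFC2 of 0.06, and PRIM1 of -0.33, while POLA1 was higher among neighbours with a median of -1.07. Across the 41 genes, Pearson's r between a gene and its neighbour median was 0.67 and Spearman's rho 0.65 in this comparison, as a description only, since both come from the same libraries and some windows share genes. Neighbour medians reached from -0.16 to 0.22 in MB157 iSOX2 against MB157 iEV and from -0.26 to 0.19 in MB157R iN1-ICD against MB157R iEV. Pearson's r was 0.23 and 0.25 there. Fold changes of all genes were also smaller with the inductions. Their lower and upper quartiles were -0.19 and 0.20 with iSOX2 and -0.18 and 0.21 with iN1-ICD, against -0.71 and 0.79 between the lines. The part of these regional differences in the values of single genes was not tested.

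MB157 iSOX2 cells were compared with MB157 iEV cells to ask what induction of SOX2 for 72 h did in the GSI-sensitive parent line. Of the 41 genes, 37 fell, 1 rose and 3 did not pass the test, with a median log2 fold change of -0.32 against -0.002 over all genes tested. Over the 10904 genes tested, 66.4% were called, 33.9% lower and 32.5% higher, so 37 of 41 lower (90.2%) was well above the share over all genes. The groups did not overlap for 38 of the 41 genes, against 70.1% of all genes. The falls were small: none reached a factor of 2, and log2 fold changes of the genes that fell ran from -0.86 for PRIM1 to -0.13 for GINS3. The summed level of the 41 genes was 2728 to 2790 CPM in the MB157 iSOX2 libraries and 3363 to 3467 CPM in the MB157 iEV libraries. When libraries were scaled by their totals alone, 60.6% of all called genes were higher, against 48.9% with TMM, and 34 of the 41 genes were still called lower.

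The subunits of primase, which makes the RNA primers that start every new strand, moved in opposite directions. PRIM1, the catalytic subunit, stood at 11.9, 11.5 and 12.3 CPM in MB157 iSOX2 and 21.1, 21.4 and 22.4 CPM in MB157 iEV. Every MB157 iSOX2 library lay far below every MB157 iEV library (1.81-fold lower, log2 fold change -0.86, SE 0.06, adjusted p = 2.4e-09), the largest fall of the 41. PRIM2, the large regulatory subunit, stood at 49.9, 50.05 and 49.8 CPM in MB157 iSOX2 and 28.2, 31.3 and 30.99 CPM in MB157 iEV. It was the gene that rose, without overlap (1.65-fold higher, log2 fold change 0.73, SE 0.05, adjusted p = 1e-09). Per kilobase of transcript, the ratio of PRIM2 to PRIM1 was 2.58, 2.69 and 2.50 in MB157 iSOX2 and 0.825, 0.902 and 0.856 in MB157 iEV; the pair was set side by side after its values were seen. In the MB157R groups the same ratio was 0.487, 0.475 and 0.454 with iN1-ICD and 0.453, 0.462 and 0.474 with iEV. Of the polymerase alpha subunits, POLA2 fell slightly (-0.18) and POLA1 did not pass the test (-0.001, 95% interval -0.12 to 0.11). PRIM1 and PRIM2 are uncertain in one respect: in GENCODE a same-strand protein-coding gene covers 25.4% of the PRIM1 transcript, and PRIM2 has a pseudogene copy on the same chromosome, so reads may have been shared between copies.

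All 5 licensing genes fell. ORC1, the ORC subunit whose level follows the cell cycle, had 12.3, 12.5 and 11.4 CPM in MB157 iSOX2 and 21.3, 21.6 and 21.03 CPM in MB157 iEV (1.76-fold lower, log2 fold change -0.81, SE 0.06, adjusted p = 6.1e-09). CDT1 had 36.1, 38.5 and 38.5 CPM in MB157 iSOX2 and 58.2, 58.7 and 56.9 CPM in MB157 iEV (1.53-fold lower, log2 fold change -0.62, SE 0.04, adjusted p = 2e-09). Neither overlapped between groups. ORC6 and CDC6 fell by 0.38 and 0.36 on the log2 scale and ORC2 by 0.14 (adjusted p = 0.03). The call of ORC2 was lost in 5 of 14 alternatives, among them leaving out MB157 iEV replicate 3 (adjusted p = 0.17), MB157 iSOX2 replicate 1 (0.061) or MB157 iSOX2 replicate 2 (0.13), with a range over all of them of 0.015 to 0.19.

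The 6 helicase subunits all fell, by 0.14 (MCM6) to 0.46 (MCM7) on the log2 scale. MCM7 had 274, 287 and 294 CPM in MB157 iSOX2 and 390.4, 390.4 and 394 CPM in MB157 iEV (log2 fold change -0.46, SE 0.03, adjusted p = 1.1e-09), and the other 5, although they moved less, likewise showed no overlap between the groups. The 6 activation genes fell as well, MCM10 the most, with 50.4, 51.5 and 49.95 CPM in MB157 iSOX2 and 69.7, 75.1 and 73.7 CPM in MB157 iEV (log2 fold change -0.52, SE 0.04, adjusted p = 6.7e-09). GINS1, GINS2, GINS4 and CDC45 fell by 0.37 to 0.43, and GINS3 by 0.13 with an adjusted p of 0.048. That call was lost in 11 of 14 alternatives, leaving out any 1 of the 6 libraries included (adjusted p 0.034 to 0.25 over all alternatives), and that of MCM6 with library totals alone (0.086, range 0.0019 to 0.086).

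Polymerase delta and epsilon genes fell by 0.14 (POLD2) to 0.48 (POLD3) on the log2 scale; the call of POLE2 was lost without MB157 iEV replicate 3 (adjusted p = 0.077, range over alternatives 0.0034 to 0.077). POLD3, an accessory subunit of polymerase delta, had 24.1, 23.5 and 23.8 CPM in MB157 iSOX2 and 34.7, 31.6 and 33.4 CPM in MB157 iEV. PCNA and all 5 RFC genes fell, RFC3 the most, at 24.8, 23.5 and 24.3 CPM in MB157 iSOX2 and 34.1, 38.2 and 34.7 CPM in MB157 iEV (log2 fold change -0.56, SE 0.05, adjusted p = 1.1e-07). Both show separate groups. LIG1 had 28.9, 26.02 and 25.8 CPM in MB157 iSOX2 and 32.5, 31.9 and 32.2 CPM in MB157 iEV, a fall as small as that of FEN1 (-0.26 and -0.25). RPA changed little: RPA1 had 102, 100.2 and 104 CPM in MB157 iSOX2 and 114, 119 and 119.8 CPM in MB157 iEV (-0.20), and RPA2 and RPA3 did not pass the test, with 95% intervals of -0.14 to 0.09 and -0.30 to 0.10. Of the deoxynucleotide genes, TYMS, which makes thymidylate, fell the most, to 50.02, 50.98 and 51.8 CPM in MB157 iSOX2, against 74.9, 78.5 and 78.4 CPM in MB157 iEV (log2 fold change -0.60, SE 0.04, adjusted p = 5.4e-10). RRM2, RRM1 and TK1 fell as well (log2 fold changes -0.44, -0.31 and -0.26). TYMS shares 59.95% of its transcript with exons of ENOSF1 on the opposite strand, and the authors counted by strand.

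**Figure D3:**
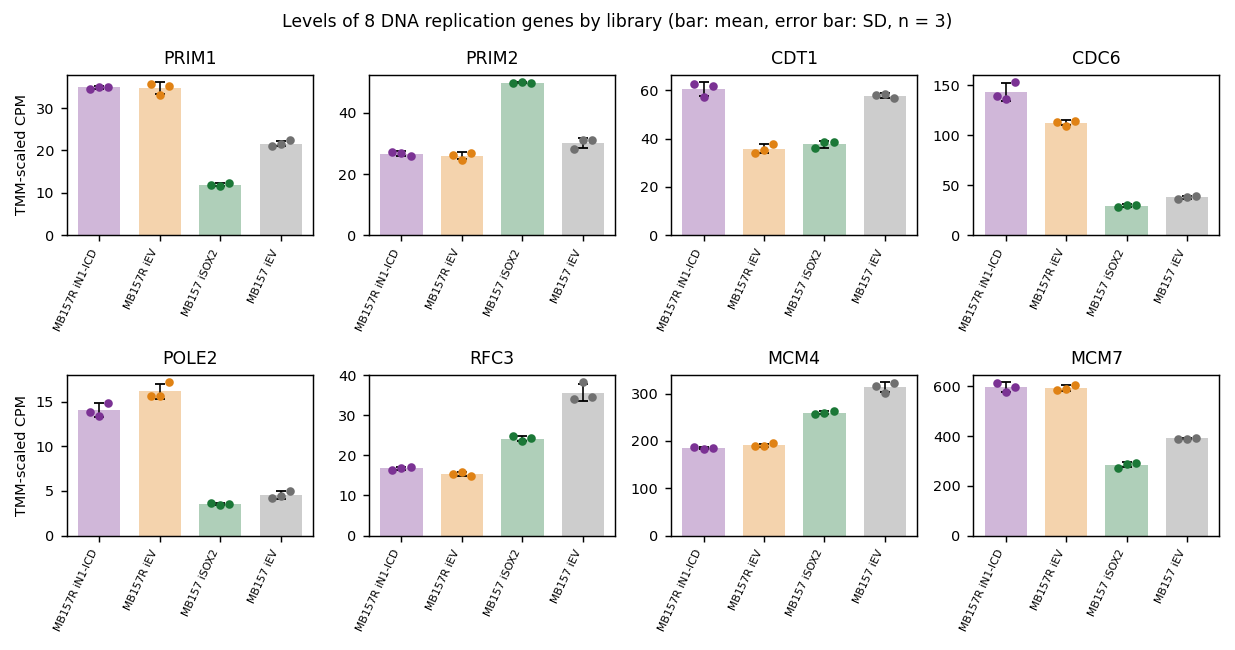
Bars are mean TMM-scaled CPM, error bars the SD and points the 3 libraries of each group, for 8 genes on axes that start at 0. PRIM1 is lowest and PRIM2 highest in MB157 iSOX2, CDT1 is low in both MB157 iSOX2 and MB157R iEV and stands near the MB157 iEV level in MB157R iN1-ICD, and RFC3 and MCM4 are highest in MB157 iEV.

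MB157R iN1-ICD cells were compared with MB157R iEV cells to ask what induction of N1-ICD did in resistant cells. Here 10 of the 41 genes rose, 10 fell and 21 did not pass the test, with a median log2 fold change of 0.02 against -0.001 over all genes tested. Over the 11210 genes tested, 59.1% were called, 29.8% higher and 29.3% lower, so the 10 higher and the 10 lower (24.4% each) were both below the share over all genes. The groups did not overlap for 30 of the 41 genes, against 65.2% of all genes. The summed level was 4247 to 4354 CPM with iN1-ICD and 4234 to 4342 CPM with iEV. The number that fell was 5 with DESeq2 and 5 to 9 when a library was left out, down to 5 without iN1-ICD replicate 2 or without MB157R iEV replicate 2 and to 6 without MB157R iEV replicate 1. The calls of ORC6, MCM10, GINS1, GINS4, POLE2 and RPA3 were each lost with DESeq2 and in 6 to 10 of 14 alternatives in all, each of the 6 libraries being one whose omission lost the call of some of them (adjusted p 0.0076 to 0.16 over these genes and alternatives).

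CDT1 rose the most, to 62.6, 57.3 and 61.9 CPM in MB157R iN1-ICD, against 34.2, 35.5 and 37.8 CPM in MB157R iEV. It did not overlap between groups and was 1.7-fold higher (log2 fold change 0.77, SE 0.05, adjusted p = 4.4e-07). The same MB157R iEV libraries serve in the comparison with MB157 iEV, where CDT1 was lower, so these CDT1 results are not independent. MB157 iEV is likewise shared by that comparison and the one with iSOX2. CDC6 rose to 139, 136 and 153 CPM in MB157R iN1-ICD, against 113, 109.7 and 115 CPM in MB157R iEV (log2 fold change 0.35, SE 0.05, adjusted p = 8.6e-05), so both partners in licensing rose. ORC2 fell, at 52.6, 53.5 and 53.2 CPM in MB157R iN1-ICD and 61.02, 63.2 and 61.98 CPM in MB157R iEV (-0.22). ORC6 rose by 0.13 on the log2 scale at an adjusted p of 0.048, and ORC1 did not pass the test (-0.12).

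Most of the helicase subunits did not pass the test. MCM6 rose (0.15), and MCM3 fell, with 149, 152 and 154 CPM in MB157R iN1-ICD and 167, 181 and 171 CPM in MB157R iEV (-0.18). MCM2, MCM4, MCM5 and MCM7 lay between -0.05 and 0.06. The GINS subunits again moved apart: GINS3 had 38.7, 36.9 and 39.9 CPM in MB157R iN1-ICD and 31.1, 29.3 and 29.3 CPM in MB157R iEV (log2 fold change 0.37, SE 0.05, adjusted p = 8.7e-05), a rise without overlap. GINS2 had 21.6, 19.3 and 21.2 CPM in MB157R iN1-ICD and 25.03, 23.99 and 26.5 CPM in MB157R iEV (log2 fold change -0.28, SE 0.06, adjusted p = 0.0035), a fall without overlap. GINS1, GINS4 and MCM10 fell by 0.12, 0.16 and 0.14 at adjusted p of 0.045, 0.045 and 0.029, and CDC45 did not pass the test (-0.11).

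The polymerase alpha-primase genes POLA1, POLA2, PRIM1 and PRIM2 did not pass the test (log2 fold changes -0.10, 0.07, 0.02 and 0.04). POLA1 had 89.7, 86.8 and 83.05 CPM in MB157R iN1-ICD and 93.6, 90.8 and 95.7 CPM in MB157R iEV, and the 95% interval was -0.11 to 0.14 for PRIM1 and -0.10 to 0.19 for PRIM2. POLD3 rose (0.19), and POLD1 and POLE did not pass the test (0.05 and 0.06). POLD2 had 122, 124 and 126 CPM in MB157R iN1-ICD and 144, 148 and 156 CPM in MB157R iEV (log2 fold change -0.26, SE 0.04, adjusted p = 0.00019), and POLE2 13.9, 13.4 and 14.9 CPM in MB157R iN1-ICD and 15.7, 15.7 and 17.2 CPM in MB157R iEV (log2 fold change -0.19, SE 0.07, adjusted p = 0.036). These were falls without overlap. RFC1, the large subunit of the clamp loader, had 116, 125 and 117 CPM in MB157R iN1-ICD and 92.9, 92.4 and 96.8 CPM in MB157R iEV, a rise (log2 fold change 0.35, SE 0.04, adjusted p = 3.6e-05). RFC4 rose as well (0.22), and PCNA, RFC2, RFC3 and RFC5 did not pass the test (0.01, 0.06, 0.14 and -0.10).

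Neither FEN1 (-0.05) nor LIG1 passed the test, and LIG1 had 63.3, 56.6 and 57.6 CPM in MB157R iN1-ICD and 55.3, 54.7 and 59.5 CPM in MB157R iEV, which overlap. RPA2 rose, to 64.4, 65.3 and 65.5 CPM in MB157R iN1-ICD, against 53.3, 53.3 and 56.8 CPM in MB157R iEV (log2 fold change 0.27, SE 0.04, adjusted p = 0.00028). RPA3 fell slightly (-0.12) and RPA1 did not pass the test (-0.01). RRM2 fell to 248, 242 and 264 CPM in MB157R iN1-ICD, against 304, 301 and 303 CPM in MB157R iEV (log2 fold change -0.26, SE 0.04, adjusted p = 0.00027), while its partner RRM1 rose (0.15). Per kilobase of transcript, the ratio of RRM2 to RRM1 was 0.787 to 0.856 in MB157R iN1-ICD and 1.07 to 1.08 in MB157R iEV, without overlap. TYMS and TK1 did not pass the test (0.11 and -0.09).

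The inductions share no library, so their effects could be tested against each other, although construct and host line differ together. The effect of iSOX2 in MB157 was lower than that of iN1-ICD in MB157R for 34 of the 41 genes and higher for 1, and 6 did not pass the test. Over the 10024 genes tested, 63.0% were called, 32.2% lower and 30.8% higher, and the median difference in log2 fold change was -0.30 for the 41 genes and -0.007 over all genes. CDT1 differed the most: its log2 fold change was -0.62 with iSOX2 and 0.77 with iN1-ICD, a difference of -1.39 (SE 0.07, adjusted p = 1.1e-11). PRIM1 followed with a difference of -0.89 and CDC6 with -0.73. A difference above 0 was found for 5 of the 41 genes, of which PRIM2 was the gene called higher (0.67, adjusted p = 2.6e-07). The 6 that did not pass were ORC2, GINS2, POLA1, POLD2, POLE2 and RPA3. Of these, POLD2 was called higher in 8 of 19 alternatives (difference 0.078 to 0.18, adjusted p 0.0033 to 0.15 over all of them). The calls of MCM3, MCM5, RRM2 and TK1 were lost with library totals alone (adjusted p 0.074 to 0.13) and with no filter.

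The 35 genes with a promoter window were also counted by whether it holds E2F-type letters. With iSOX2, 16 of the 17 genes that hold them fell and 17 of the 18 that do not, with median log2 fold changes of -0.36 and -0.31, and in MB157R iEV against MB157 iEV the medians were 0.46 and 0.30. With iN1-ICD, 4 genes rose and 4 fell in each set. Only the exact letters were searched, so windows counted as without them may hold near matches. The part of E2F factors in these values was not tested. The window of PRIM2 lies at a start inside its gene record, so a start further upstream was not searched.

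Genes that work beside the 41 were counted in the same fits, to be read against the shares over all genes tested: 33.9% lower and 32.5% higher with iSOX2, 29.3% lower and 29.8% higher with iN1-ICD, and 45.0% higher and 45.3% lower in MB157R iEV against MB157 iEV. Of 30 other fork and origin genes, 19 fell and 7 rose with iSOX2, 9 fell and 7 rose with iN1-ICD (30% and 23.3%, near or below those shares), and 18 were higher and 8 lower in MB157R iEV than in MB157 iEV. With iSOX2 the largest falls were those of DBF4, the activator of the CDC7 kinase (-0.63), and RNASEH2B, of ribonuclease H2 (-0.61), and the largest rises those of POLD4 and POLE4, small accessory subunits of polymerases delta and epsilon (0.52 and 0.43). With iN1-ICD, POLE4 and DBF4 fell the most (-0.66 and -0.39), and POLD4 and ORC3 rose the most (0.25 and 0.25). CLSPN and TIPIN, whose proteins act in the fork protection and checkpoint machinery, were the most raised in MB157R iEV (1.81 and 1.64), and DSCC1 and ORC3 the most lowered (-0.87 and -0.79). Of 10 other deoxynucleotide genes, 6 fell and 2 rose with iSOX2 and 4 fell and 2 rose with iN1-ICD, while 6 were higher and 4 lower in MB157R iEV. RRM2B, a p53-regulated counterpart of RRM2, was among those that rose with iSOX2 (0.18) and the most lowered in MB157R iEV (-1.82), where DTYMK was the most raised (1.09). Of 11 genes for chromatin assembly on new DNA, 10 fell with iSOX2, led by UHRF1, which guides maintenance of DNA methylation (-0.84), and ASF1B, a histone chaperone (-0.47); with iN1-ICD 3 rose and 4 fell, and 7 were higher and 3 lower in MB157R iEV.

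E2F factors, RB and the DREAM complex regulate many of these genes. Of 25 E2F, RB and DREAM genes, 9 were higher and 15 lower in MB157R iEV than in MB157 iEV (36.0% and 60.0%, against 45.0% and 45.3% of all genes). E2F3, an activator of S-phase genes, averaged 996 ± 15.8 CPM in MB157R iEV and 89.5 ± 2.55 CPM in MB157 iEV (SD, n = 3), and E2F7, a repressor of the family, 102 ± 3.38 CPM in MB157R iEV and 21.3 ± 1.77 CPM in MB157 iEV. E2F2, another activator, averaged 3.26 ± 0.297 CPM in MB157R iEV and 52.7 ± 0.736 CPM in MB157 iEV, and RB1, which restrains E2F activity, 3.29 ± 0.438 CPM in MB157R iEV and 30.8 ± 1.83 CPM in MB157 iEV. These are log2 fold changes of 3.48 for E2F3, 2.26 for E2F7, -4.01 for E2F2 and -3.21 for RB1. With iSOX2, 16 of the 25 fell (64.0%, against 33.9% of all genes) and 1 rose: E2F2 (-0.73) and E2F8 (-0.60) fell the most and RBL2 rose (0.13), while RB1 averaged 30.4 ± 1.79 CPM in MB157 iSOX2 and 30.8 ± 1.83 CPM in MB157 iEV. With iN1-ICD, 11 of the 24 tested rose and 6 fell (45.8% and 25.0%, against 29.8% and 29.3% of all genes), led by E2F2 and CDC25A (1.22 and 0.50) on one side and SKP2 and E2F4 (-0.35 and -0.26) on the other.

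Genes of mitosis and cytokinesis, which peak after S phase, were counted beside the replication genes. In MB157 iSOX2 all 34 fell, against 33.9% of all genes, with a median log2 fold change of -0.58 against -0.32 for the 41 replication genes, led by AURKB (-0.85) and KIF20A (-0.80). In MB157R iN1-ICD 30 of 34 fell and 4 did not pass the test (88.2% lower, against 29.3% of all genes; median -0.24, against 0.02 for the replication genes), led by BIRC5 (-0.53) and CDC20 (-0.53). In MB157R iEV against MB157 iEV, 20 were lower and 9 higher (58.8% and 26.5%, against 45.3% and 45.0% of all genes; median -0.22, against 0.39 for the replication genes), from AURKA (-1.32) and BIRC5 (-1.12) to KIF23 (0.75) and BUB1B (0.96). The summed level of the 34 genes was 3635 to 3734 CPM in MB157R iN1-ICD, 4379 to 4492 CPM in MB157R iEV, 3341 to 3379 CPM in MB157 iSOX2 and 4861 to 5084 CPM in MB157 iEV. Mitotic genes thus moved beside the replication genes with iSOX2, and their part in that result was not tested.

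Levels were also compared between subunits, as mean TMM-scaled CPM per kilobase of transcript. MCM7 was the highest and MCM5 the lowest of the MCM2-7 genes in all 12 libraries. MCM7 stood at 242 ± 7.45 CPM per kb in MB157R iN1-ICD, 241 ± 4.49 in MB157R iEV, 115 ± 4.17 in MB157 iSOX2 and 159 ± 0.891 in MB157 iEV (SD, n = 3). MCM5 stood at 28.8 ± 1.74 CPM per kb in MB157R iN1-ICD, 29.9 ± 0.581 in MB157R iEV, 12.3 ± 0.749 in MB157 iSOX2 and 14.6 ± 0.384 in MB157 iEV. The ratio of the highest to the lowest subunit was 8.20 to 8.75 in MB157R iN1-ICD, 8.02 to 8.08 in MB157R iEV, 8.86 to 9.93 in MB157 iSOX2 and 10.6 to 11.2 in MB157 iEV. POLE2 was the lowest of the 41 genes in MB157 iEV (2.69 ± 0.26 CPM per kb) and in MB157 iSOX2 (2.08 ± 0.0871), RFC3 in MB157R iEV (6.66 ± 0.216) and GINS4 in MB157R iN1-ICD (6.84 ± 0.466). POLA2 and POLD1 carry a caveat of their own: same-strand protein-coding genes cover 55.8% and 12.4% of their transcripts in GENCODE, and estimated counts may have been divided between them.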

How the data were processed

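Stranded mRNA libraries from 800 ng of RNA were sequenced in 12 samples, 4 groups of 3. Per the labels and the paper's methods, the authors mapped reads to hg38 with STAR, quantified them by strand with Salmon and deposited estimated counts (expected counts, not normalized) for 29744 entries; the annotation is not given in the sources used here. The authors also deposited 3 tables of log2 TMM-scaled CPM (edgeR 3.42.4, limma 3.56.2), filtered on low values, uncharacterized genes and pseudogenes. These tables were used only for their gene lists, and their values were not tested.

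Here the estimated counts were rounded and tested with edgeR 4.0.16 in R 4.3.3 (quasi-likelihood test, TMM factors, 6 libraries per comparison, 12 for the difference between inductions, no replicate block), with Benjamini-Hochberg adjustment over all genes tested and calls at an adjusted p under 0.05. SE is the log2 fold change divided by the root of the F statistic. The 95% intervals use this SE and a t distribution on the residual degrees of freedom of the 6 libraries. The SE already holds the pooling across genes that the test uses. The degrees of freedom leave out what this pooling adds, so the intervals are wider than that test implies. Levels are CPM (counts relative to library size) scaled by TMM over the 12 libraries, and lengths are those of the MANE transcript in GENCODE. Within groups, libraries differed beyond counting noise (chi-square per gene 4.00 to 12.7), and all were kept as separate samples. The 41 genes, their roles and the other lists were chosen with earlier results of these data known, and lists are described by counts and medians with no set test. Values in every library are given in each comparison for the called genes without overlap that rose or fell the most (5 each way) and for 1 gene of each role not yet covered; in the other lists the 2 that rose and the 2 that fell the most could be named, of which the text gives a part. Fits were repeated with DESeq2 1.42.0, limma-voom 3.58.1, RLE factors or unscaled library totals, without a filter or with one on the mean count (at least 5), over all 12 libraries together, with a replicate block, and leaving out each library.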

Additional observations from a re-analysis of the deposited data

How the results depend on the processing

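No called direction was reversed for the 41 genes under the alternatives run. Counting each gene in each alternative, a call was lost 71 times and gained 35 times. The losses were those of ORC2, GINS3, MCM6 and POLE2 with iSOX2, of GINS1, GINS4, MCM10, ORC6, POLE2 and RPA3 with iN1-ICD, and of MCM3, MCM5, RRM2 and TK1 in the difference between inductions. The cause was not tested. The 24 higher and 9 lower genes in MB157R iEV against MB157 iEV were 24 and 9 to 10 when a library was left out, and 28 were higher without a filter or with the one on the mean count. Their median of 0.39 was 0.46 with a mean count of at least 5 and 0.47 with no filter. With iSOX2, 34 to 36 genes were lower when a library was left out, and the median of -0.32 was -0.26 with library totals alone, where the median over all genes was 0.06. With iN1-ICD, 9 to 10 rose and 5 to 9 fell when a library was left out, 5 fell with DESeq2, 13 fell without a filter, with the one on the mean count and with all 12 libraries in 1 fit (where 11 rose), and the median was -0.013 with no filter. For the difference between inductions, 1 gene was higher, against 2 with RLE factors, 3 with library totals alone, 2 with a mean count of at least 5, 2 with no filter, 2 with DESeq2, and 1 to 2 when a library was left out. Its median of -0.30 was -0.22 with library totals alone, -0.26 with a mean count of at least 5 and -0.25 with no filter. Deviations of libraries with the same replicate number correlated between -0.16 and 0.06 over 11945 genes, and those with different numbers between -0.19 and 0.19. No pairing by number was seen, but this cannot show whether libraries of the same number were handled together. With the replicate block 9 genes rose and 7 fell with iN1-ICD, 36 fell with iSOX2, and 24 were higher and 9 lower in MB157R iEV. The 41 genes had 135 to 29156 counts per library.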

Other observations

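Homologous recombination and mismatch repair genes, many of which act at replication forks, were counted from a list of 23 written after the data were seen. With iSOX2, 20 of the 23 fell (87.0%, against 33.9% of all genes) and 3 did not pass the test, with a median log2 fold change of -0.34. RAD54L, which encodes a DNA translocase of homologous recombination, averaged 30.8 ± 0.727 CPM in MB157 iSOX2 and 53.8 ± 2.52 CPM in MB157 iEV (SD, n = 3; log2 fold change -0.80), and BARD1 had a log2 fold change of -0.69. With iN1-ICD, 11 rose and 3 fell (47.8% and 13.0%, against 29.8% and 29.3% of all genes), with a median of 0.12. In MB157R iEV against MB157 iEV, 11 were higher and 10 lower (47.8% and 43.5%), close to the 45.0% and 45.3% over all genes. FANCD2, a core gene of the Fanconi anemia pathway, averaged 336 ± 9.79 CPM in MB157R iEV and 85.5 ± 3.12 CPM in MB157 iEV, and RMI2 was the most lowered (-1.18).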
